A study of Mus musculus with 12 samples.

Results

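In aged liver, some sets of interacting chromatin hold pieces that lay in separate sets at the younger age. Such sets were followed here in networks of H3K27ac contacts from mouse hepatocytes. The authors call a set of linked bins a clique, and a bin is a 5 kb stretch of the genome. An old clique was taken as joining when its bins included at least 1 bin each of at least 2 different young cliques, with bins matched by identical chromosome and start on the autosomes. Of 5867 old cliques on autosomes, 662 met this rule, which is 11.3% (95% Wilson interval 10.5 to 12.1). Another 3918 held bins of 1 young clique and 1287 held none. The members were therefore selected on the shared bins of both networks, and those shared bins are given below as a description.

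Hepatocytes came from male C57BL/6 mice. The young group was bought at 3 months of age from Charles River and the old group at 23 months from the NIA colony, and both were acclimated for 2 months and fed a regular diet, so that they were 5 and 25 months old. The ages thus also differ in supplier. Livers were perfused with collagenase, hepatocytes were collected by low-speed pelleting, and contacts were captured with the Abcam ab4729 antibody to H3K27ac. Each age had 6 libraries, from 2 biological replicates in 3 batches of technical repeats, 12 in all. The deposited tables hold 1 network per age, taken to pool those libraries, so no value below has a spread between mice, no test was made, and every difference is between these 2 networks. The young network had 56365 autosomal bins in 5262 cliques (mean 10.7 bins) and the old 39968 bins (mean 6.81), and the number of reads behind each is unknown. Of 7 hepatocyte markers, 6 were listed by a clique in young and 5 in old, and of 49 markers of other liver cell types 8 were listed in young and 5 in old. The tables give listing and no level, and a change in cell makeup cannot be told apart from a change within hepatocytes.

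Acetylation of lysine 27 on histone H3 marks active promoters and enhancers. Hi-ChIP ligates DNA ends that lie close together in the nucleus and then enriches for the mark, so it reads contacts among active promoters and enhancers. Groups of such elements that contact each other are often described as hubs, and in hepatocytes they surround genes for secreted plasma proteins, lipid transport and metabolism.

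Promoters of 4 gene pairs are shown because each pair lay in separate young cliques and in 1 old clique. Foxa3 encodes a hepatocyte forkhead factor and Apoe the apolipoprotein that carries remnant particles to their receptors. Plin5 coats lipid droplets, and C3 is the central component of complement. Hspa5 encodes the main chaperone of the endoplasmic reticulum, and Hc encodes complement component C5. Cpt2 is the inner mitochondrial carnitine palmitoyltransferase, and Scp2 makes a sterol carrier and a peroxisomal thiolase. Sequences are from RefSeq on GRCm38.p6, 5′ to 3′ on the gene's strand, from 250 bases before to 50 bases after the start. Capitals mark matches on either strand to the TATA box (spelled TATAAA), the FoxA site (spelled TGTTTAC), the AP-1 site (spelled TGANTCA), the E-box (spelled CACGTG) or the CCAAT box (spelled by its name). The pairs were picked after their values were seen.
Foxa3: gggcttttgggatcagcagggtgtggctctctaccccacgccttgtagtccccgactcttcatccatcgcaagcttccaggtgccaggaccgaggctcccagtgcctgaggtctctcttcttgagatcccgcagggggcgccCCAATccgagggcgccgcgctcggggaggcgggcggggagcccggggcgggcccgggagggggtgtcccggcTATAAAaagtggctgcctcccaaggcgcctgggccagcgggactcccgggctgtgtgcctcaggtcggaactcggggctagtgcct
Apoe: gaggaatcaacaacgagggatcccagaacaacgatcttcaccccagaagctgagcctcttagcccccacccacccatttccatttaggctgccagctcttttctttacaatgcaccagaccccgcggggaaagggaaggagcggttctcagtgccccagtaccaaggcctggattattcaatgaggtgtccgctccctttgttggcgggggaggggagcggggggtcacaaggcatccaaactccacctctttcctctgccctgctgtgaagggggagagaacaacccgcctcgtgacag
Plin5: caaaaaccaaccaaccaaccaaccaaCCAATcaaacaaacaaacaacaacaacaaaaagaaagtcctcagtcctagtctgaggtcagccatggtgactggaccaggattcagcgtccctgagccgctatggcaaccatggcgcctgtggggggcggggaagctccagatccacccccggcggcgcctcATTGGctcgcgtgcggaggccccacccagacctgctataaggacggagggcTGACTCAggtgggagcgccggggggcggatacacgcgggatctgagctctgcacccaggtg
C3: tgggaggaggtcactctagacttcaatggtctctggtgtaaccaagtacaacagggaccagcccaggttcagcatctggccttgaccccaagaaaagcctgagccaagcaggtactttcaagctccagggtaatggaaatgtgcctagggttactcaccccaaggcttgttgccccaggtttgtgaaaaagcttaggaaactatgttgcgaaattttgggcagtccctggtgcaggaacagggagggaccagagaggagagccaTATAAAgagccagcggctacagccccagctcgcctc
Hspa5: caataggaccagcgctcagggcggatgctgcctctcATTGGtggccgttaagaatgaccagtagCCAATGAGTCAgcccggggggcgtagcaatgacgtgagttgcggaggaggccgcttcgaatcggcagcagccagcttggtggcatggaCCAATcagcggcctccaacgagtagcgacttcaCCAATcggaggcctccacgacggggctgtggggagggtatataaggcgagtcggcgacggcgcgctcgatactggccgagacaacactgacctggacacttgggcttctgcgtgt
Hc: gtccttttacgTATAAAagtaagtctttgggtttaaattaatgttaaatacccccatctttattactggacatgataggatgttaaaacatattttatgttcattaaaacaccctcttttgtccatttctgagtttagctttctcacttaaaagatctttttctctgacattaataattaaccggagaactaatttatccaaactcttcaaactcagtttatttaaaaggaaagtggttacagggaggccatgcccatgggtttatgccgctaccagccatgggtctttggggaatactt
Cpt2: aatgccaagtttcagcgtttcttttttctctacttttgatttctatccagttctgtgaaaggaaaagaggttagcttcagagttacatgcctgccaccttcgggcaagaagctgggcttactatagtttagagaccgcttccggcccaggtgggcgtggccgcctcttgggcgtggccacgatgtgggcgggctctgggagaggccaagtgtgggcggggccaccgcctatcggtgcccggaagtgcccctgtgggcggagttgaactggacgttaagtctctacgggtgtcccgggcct
Scp2: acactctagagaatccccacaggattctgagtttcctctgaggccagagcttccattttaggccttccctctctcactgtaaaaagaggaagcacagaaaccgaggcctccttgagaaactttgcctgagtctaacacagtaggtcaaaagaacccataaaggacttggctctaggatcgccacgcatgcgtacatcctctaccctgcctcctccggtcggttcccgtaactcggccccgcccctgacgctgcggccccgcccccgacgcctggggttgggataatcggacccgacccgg
The Foxa3 promoter (chr7:19023490-19023789, minus strand) held 1 TATA box and 1 CCAAT box, and the Apoe promoter (chr7:19699139-19699438, minus) held none of the 5 motifs. The Plin5 promoter (chr17:56117499-56117798, minus) held 2 CCAAT boxes and 1 AP-1 site, and that of C3 (chr17:57228087-57228386, minus) 1 TATA box. The Hspa5 promoter (chr2:34771840-34772139, plus) held 4 CCAAT boxes, 1 of them overlapping its AP-1 site, while the Hc promoter (chr2:35061363-35061662, minus) held 1 TATA box. The Cpt2 (chr4:107923540-107923839, minus) and Scp2 (chr4:108118498-108118797, minus) promoters held no match. Counted from the first base shown, the TATA box match began at base 215 in Foxa3, 265 in C3 and 12 in Hc. With 250 bases before the start, the C3 match lay after the start and the Hc match far before it. Base makeup differed within some pairs and not within others. GC content was 61.3% in Hspa5 against 34.7% in Hc, with 25 and 3 CG pairs, and 57.3% in both Cpt2 and Scp2, with 17 each. All 8 start sites lay in bins present at both ages. A TATA box was found in 12.6% of all 21263 promoters of the table, in 7.38% of the 6852 whose start site lay in an old bin and in 8.12% of the 1663 in a joining clique. The shares for the CCAAT box were 38.2%, 38.0% and 39.5%, for the FoxA site 3.01%, 2.50% and 2.53%, for the AP-1 site 6.99%, 5.12% and 4.75%, and for the E-box 7.84%, 9.95% and 12.0%. These matches are letters in a window and no evidence of binding.

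The joins ranged from a stray bin to a near-equal merger, and most were of the former kind. The next largest contributor, that is the young clique with the second most shared bins, gave 1 bin in 457 of the 662 (69.0%). It gave 2 bins in 114 (17.2%), 3 to 4 in 36 (5.44%), 5 to 9 in 33 (4.98%) and 10 or more in 22 (3.32%). In 110 joins (16.6%) the whole old clique was 2 bins, 1 from each of 2 young cliques. Just outside the rule stand the 3918 old cliques with bins of 1 young clique, and just inside it the 457 whose next contributor gave a single bin. Most joins drew on few sources: 575 held bins of 2 young cliques, 70 of 3, 13 of 4, 2 of 5, 1 of 6 and 1 of 7. Joining cliques held 9362 of the 39968 autosomal old bins (23.4%). Of these bins, 6390 (68.3%) came from the young clique with the most shared bins, here called the main contributor, 1533 (16.4%) from other young cliques, and 1439 (15.4%) were in the old network only. In a tie, as in all 110 joins of 2 bins, the young clique first by position was taken as the main contributor. Old cliques with bins of 1 young clique had a similar share of old-only bins, 15.2%.

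**Figure D1:**
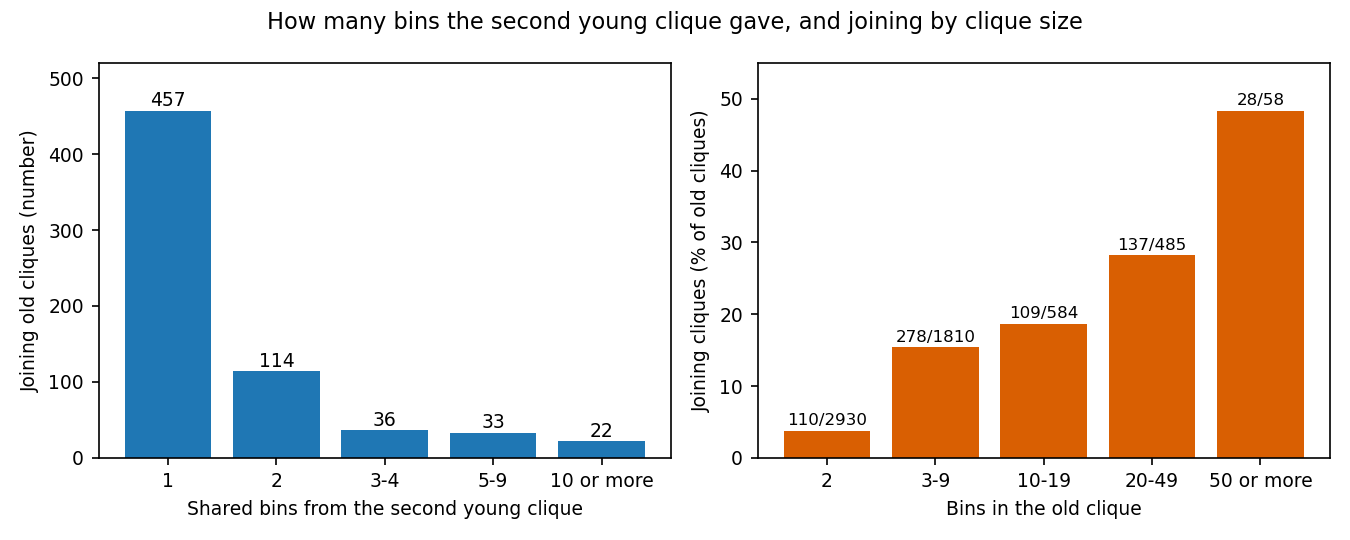
Left, the number of joining old cliques by the number of bins shared with the young clique that gave the second most; right, the percentage of autosomal old cliques that were joining, by number of bins in the old clique. The left bars fall from 457 cliques with 1 bin to 22 with 10 or more, and the right bars rise from 3.75% of 2-bin cliques to 48.3% of those with 50 bins or more.

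Joining cliques were larger than other old cliques. They had a median of 7 bins, a mean of 14.1 and a maximum of 160, and spanned a median of 175 kb. Old cliques with bins of 1 young clique had a median of 3 bins, a mean of 7.07 and a maximum of 77, and spanned 70.0 kb. A clique with more bins has more chances to meet the rule, and the joining share rose with size from 110 of 2930 2-bin cliques (3.75%) to 28 of 58 with 50 bins or more (48.3%). The joining cliques spanned more in each of the 5 size classes. The rule bears on span as well, because it asks for bins of separate young cliques, so nothing is read from this. At 20 to 49 bins the median span was 390 kb in 137 joining cliques and 275 kb in 348 with 1 young source, and at 50 or more it was 825 and 532 kb. Genes listed per clique were 0.627 in joining cliques and 0.639 in those with 1 source at 2 bins, 1.76 and 1.46 at 3 to 9, 4.25 and 3.85 at 10 to 19, 8.44 and 7 at 20 to 49, and 23.9 and 16.4 at 50 or more, so joining cliques listed more in all classes but that of 2 bins. The top class has no upper limit and reached 160 bins in joining cliques and 77 in the others. Size is therefore not matched there, for span or for genes. The old-only share of bins changed direction with size. It was 0% and 22.0% at 2 bins, where the rule leaves no room for an old-only bin, and 22.1% and 24.1% at 3 to 9 bins. It was 18.5% and 13.7% at 10 to 19 bins, 12.6% and 9.88% at 20 to 49, and 15.6% and 7.30% at 50 or more. By chromosome the joining share ran from 8.94% on chromosome 13 (21 of 235) to 13.6% on chromosome 14 (35 of 258). None of these differences was tested.

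In number of bins, few joins made a clique larger than its largest source. Of the 4580 old cliques with a young bin, 5.94% had more bins than their largest young contributor. Among the joining cliques it was 105 (15.9%, 13.3 to 18.8), and among those with 1 young source 167 (4.26%). The rule bears on this count, because a bin from a further clique adds to size, so nothing is read from the excess. The count also depends on how size is measured, since old cliques were smaller on average: with size divided by the mean of its age 305 of the 662 were larger, and over shared bins only 259. The median ratio of old size to largest young size was 0.591 in joining cliques and 0.333 in those with 1 source, so in both the typical old clique was smaller than its source. Only 24 joining cliques (3.63%) exceeded the sum of their contributors. The share that outgrew the largest source was 30.7% (63 of 205) where the next contributor gave 2 bins or more and 68.2% (15 of 22) where it gave 10 or more. At 50 bins or more, 11 of 28 joining cliques and 0 of 30 others were larger than their largest source.

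**Figure D2:**
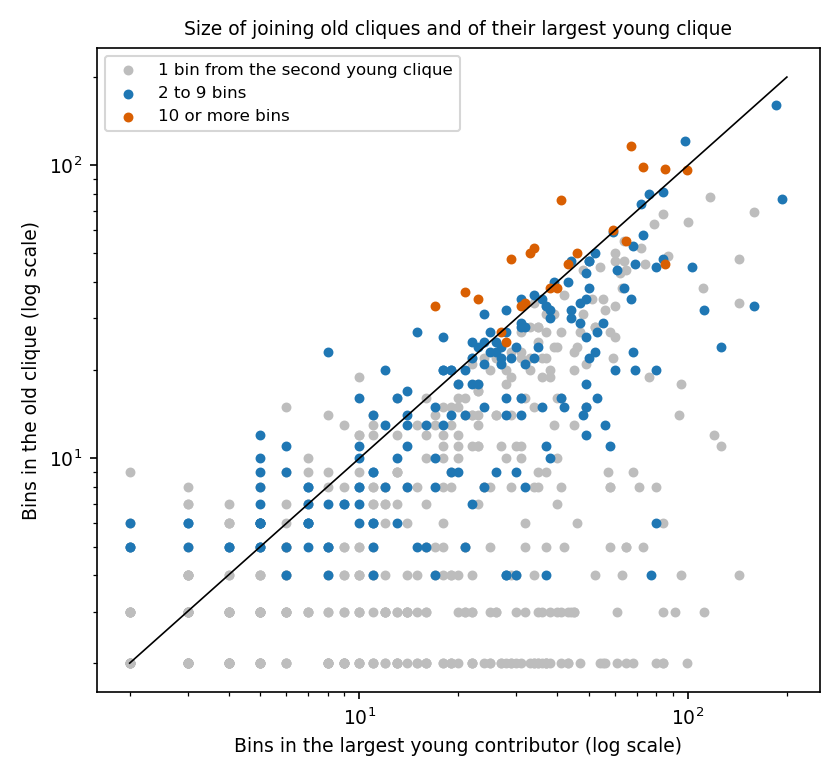
Bins in each of the 662 joining old cliques against bins in its largest young contributor, both on log scales, coloured by how many bins the young clique with the second most gave; the line marks equal size. Points above the line are the 105 that outgrew their largest source, and 15 of the 22 orange points lie there.

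A join was whole in some places and a trade of parts in others. In 183 joining cliques (27.6%, 24.4 to 31.2), every bin of every contributor that was still present in old lay in that 1 clique. The remaining joins left part of a contributor in another old clique. Of the 773 contributions other than the main one, 499 (64.6%) were whole in this sense, and these came from young cliques with a median of 2 bins. The 274 partial ones came from young cliques with a median of 9 bins, and 199 of them (72.6%) were of 1 bin. A contributor with only 1 bin kept in old is whole by definition. The 64.6% and the 27.6% thus include cases that could not be partial. In 112 of the 773 (14.5%) the contributor had been larger in young than the main one. Linking cliques that share bins gave 541 groups with a joining clique: 183 (33.8%) had 1 old clique, 268 (49.5%) 1 joining clique and further old ones, and 90 (16.6%) at least 2 joining cliques. The most extensive group had 6 young and 12 old cliques, 4 of them joining.

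Contributors lay side by side in most joins, but single bins set part of this count. In 454 joins (68.6%) their stretches of shared bins did not overlap, in 184 (27.8%) 1 lay inside another and in 24 (3.63%) they overlapped in part. Where the next contributor gave 2 bins or more these counts were 104, 77 and 24 of 205, and where it gave 10 or more 17, 4 and 1 of 22. Contributors of 1 shared bin each can only lie side by side, and a single bin cannot overlap in part. Such joins enter the 68.6%, and where the next contributor gave 2 bins or more the share was 50.7%. The 50.7% still counts single bins of further contributors. With at least 2 bins required from each young clique the share was 55.6%, and with at least 3 it was 73.6% of 91 joins. Bins of other contributors lay a median of 60.0 kb from the nearest bin of the main one. Of 1533 such bins, 229 (14.9%) were next to a main bin and 595 (38.8%) were more than 100 kb away, the farthest at 880 kb. Between neighbouring contributors of at least 5 shared bins there were 52 gaps, with a median of 65.0 kb and a range of 0 to 540 kb. In 18 of these (34.6%) the joining clique held an old-only bin inside the gap, and in the rest it held none there. The rest include the gaps of 0 kb, which can hold no bin.

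Counted as pairs of bins, joining was the smaller side of the change. Pair counts grow with clique size, and the mean size was 10.7 bins in young and 6.81 in old, which bears on this comparison. Of pairs among the 31428 autosomal bins present at both ages, 296945 shared a clique in both networks, 117782 in young only and 29098 in old only. The last are the pairs that joining brought together, 8.92% of the old pairs, while 28.4% of the young pairs were apart in old. A few cliques carried much of it, since the 10 with most such pairs held 11654 (40.1%). The 22 joins with 10 or more bins from the next contributor held 13786 (47.4%), and the 457 with 1 bin held 3776.

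The Plin5 and C3 clique brought together the most. It spanned chr17:55955001-57340000 and had 116 bins, 50, 23, 16 and 2 of them from young cliques of 67, 30, 29 and 3 bins and 25 old-only. It accounted for 2496 new bin pairs and 372 new pairs of protein-coding genes, the largest number of gene pairs in any joining clique. The main contributor listed Plin5, Plin4, Plin3, of the lipid droplet coat family, and Lonp1, a mitochondrial protease. From the 30-bin young clique came C3 and Khsrp, an RNA-decay factor, and from the 29-bin clique Yju2, a splicing factor, and Chaf1a, a histone chaperone subunit. A gap of 260 kb with no bin of the clique separated the Plin5 and C3 sides. Thus C3 was listed by a clique of 30 bins in young and of 116 in old, and Plin5 by cliques of 67 and 116.

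Another large join lay on chromosome 16. The Adcy9 and Coro7 clique (chr16:4265001-5145000) had 99 bins, 53 and 35 from young cliques of 73 and 44 bins, with 11 old-only bins and 1855 new bin pairs. All 35 bins of the smaller source that were present in old lay here, as did 53 of 55 of the larger, and 15 kb separated them. The smaller source listed Adcy9, an adenylyl cyclase, and Tfap4, a helix-loop-helix transcription factor. The larger listed Coro7, a coronin of the Golgi, and Hmox2, the constitutive heme oxygenase. Pam16, a subunit of the mitochondrial protein import motor, was listed by no young clique.

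Neighbouring cliques on chromosome 4 traded bins. A young clique of 85 bins kept 75 in old, and 51 of them went to the 97-bin Epha2 and Casp9 clique (chr4:141120001-141975000). Another 20 went to the 46-bin Efhd2 and Tmem51 clique (chr4:141800001-142110000), and its kept bins lay in 5 old cliques in all. The former clique also took 33 bins of a 42-bin young clique that listed Epha2, an ephrin receptor kinase, and now held them with Casp9, the initiator caspase of the mitochondrial death pathway. The latter took 21 bins of a 24-bin young clique that listed Tmem51, and held them with Efhd2, a calcium-binding protein. So Epha2 went from a clique of 42 bins to one of 97, while Efhd2 went from 85 to 46.

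The clique with the most sources drew on 7 young cliques. This Ctnnd1 and Serping1 clique (chr2:84495001-85100000) had 48 bins, 24, 12, 3, 3, 2, 2 and 1 from young cliques of 29, 18, 7, 5, 2, 2 and 2 bins, and only 1 old-only bin. Ctnnd1 encodes p120 catenin of cell junctions, and came from the 18-bin clique. The 29-bin clique listed Serping1, the inhibitor of C1 of complement, with Med19, a subunit of Mediator. The Hspa5 and Hc clique (chr2:34745001-35340000) drew on 6, with 52 bins, 23, 14, 3, 2, 2 and 1 from young cliques of 34, 23, 4, 8, 2 and 2 bins. Its contributors with Hspa5 (23 bins) and Hc (34 bins) lay next to each other with a gap of 0 kb. It had 7 old-only bins and listed Gsn, the actin-severing protein gelsolin, which no young clique listed. The remaining clique with 5 sources besides that of Ppp1r3c was a 27-bin clique at chr12:99185001-99570000 that listed Foxn3, a forkhead factor, and took 15, 2, 1, 1 and 1 bins.

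**Figure D3:**
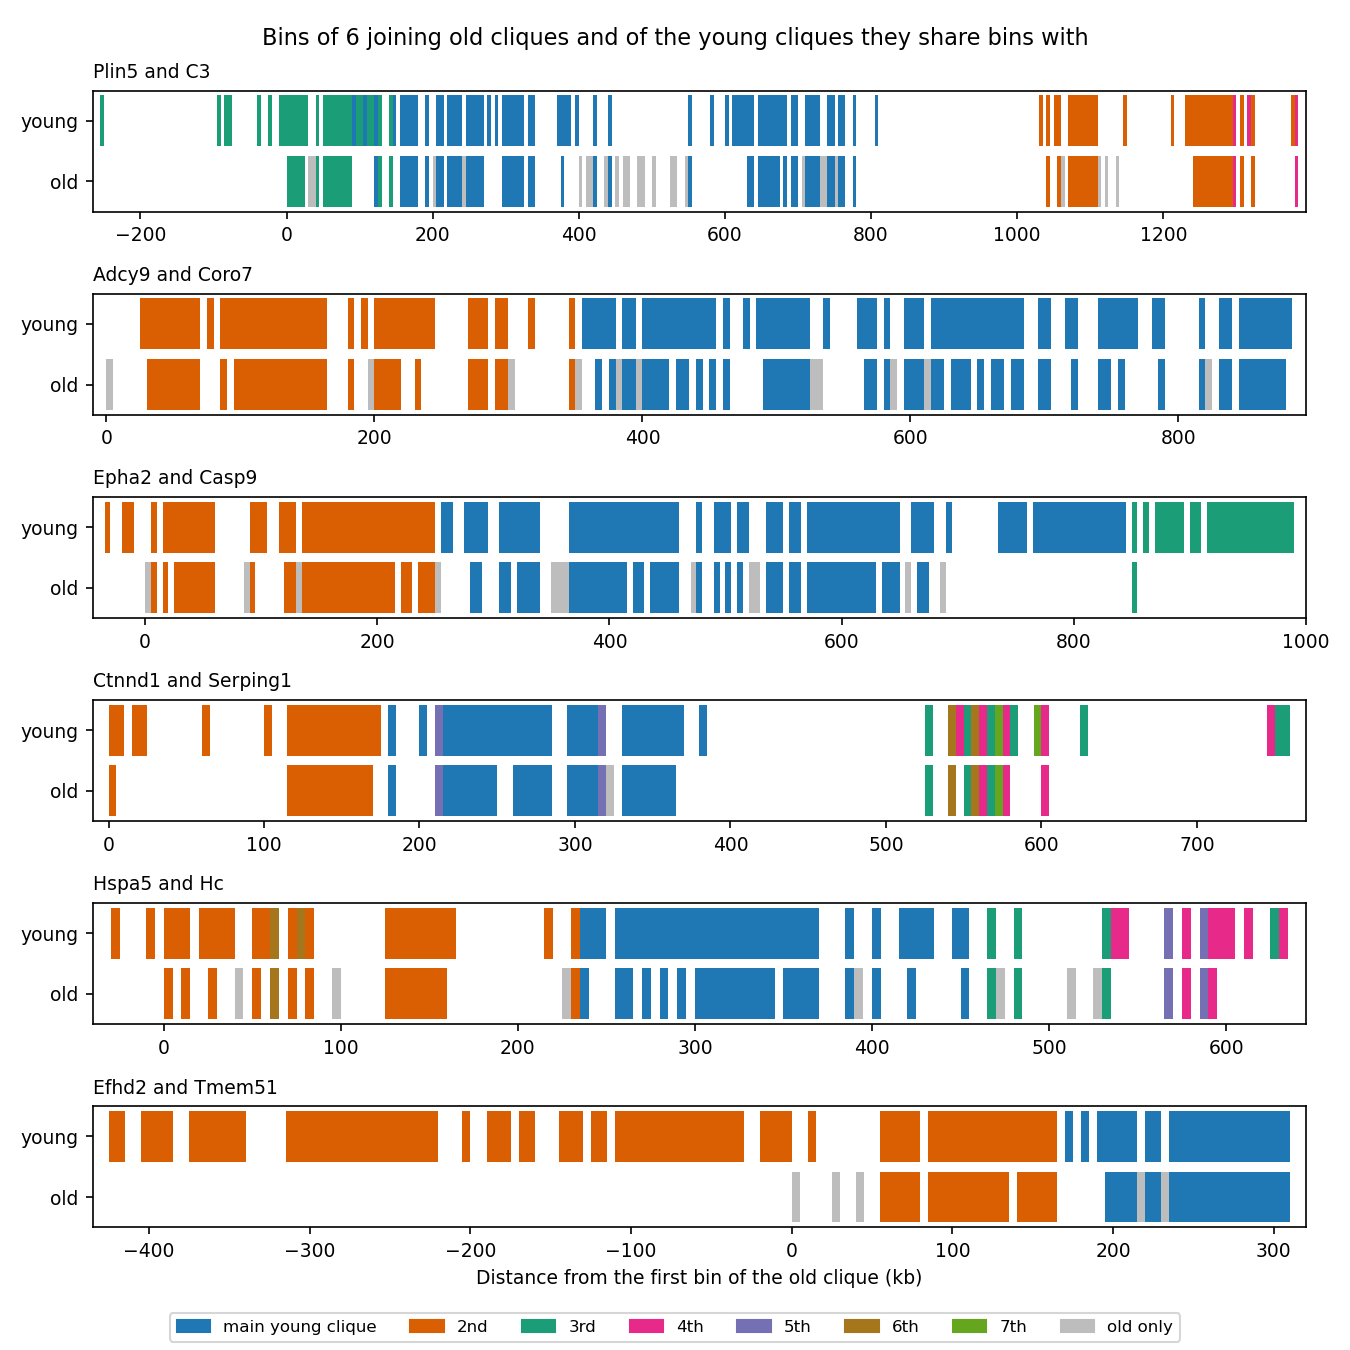
Bins of 6 joining old cliques (lower track of each panel) and of the young cliques they share bins with (upper track), by distance in kb from the first bin of the old clique; colours give the young clique by rank of shared bins and grey marks old-only bins. The Adcy9 and Coro7 panel shows 2 blocks that lie side by side, and the Epha2 and Casp9 and Efhd2 and Tmem51 panels show parts of the same 85-bin young clique in different old cliques.

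The joining clique with the most old-only bins lay on chromosome 19. This Ppp1r3c and Cpeb3 clique (chr19:36605001-37380000) had 76 bins, of which 36 were old-only and 24, 12, 2, 1 and 1 came from young cliques of 41, 19, 3, 2 and 2 bins. Ppp1r3c targets protein phosphatase to glycogen, and Cpeb3 controls translation of messenger RNA. In the 230 kb between the young cliques of Ppp1r3c and Cpeb3 lay 15 old-only bins. Btaf1, an ATPase that acts on TATA-binding protein, Ide, the insulin-degrading enzyme, and Kif11, a mitotic kinesin, were listed here and by no young clique. Fgfbp3, a fibroblast growth factor carrier, went from a clique of 2 bins to this one of 76.

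Other joins of the named set linked distant or adjoining blocks. The 96-bin Epas1 and Ttc7 clique (chr17:86140001-87570000) took 66, 18 and 1 bins from young cliques of 99, 37 and 3 bins, across 355 kb without a bin of the clique. This join was complete, and it set Epas1, an oxygen-regulated transcription factor, and Prkce, a protein kinase C, beside Mcfd2, part of the cargo receptor that exports coagulation factors. The 50-bin Upb1 and Mif clique (chr10:75280001-75955000) held 28 bins of a young clique with Mif, a cytokine, and the glutathione transferases Gstt1 to Gstt4. It also held 18 bins of one with Upb1, an enzyme of pyrimidine breakdown, across a gap of 220 kb. Cabin1, a calcineurin inhibitor, and Derl3, of endoplasmic reticulum degradation, were listed there in old only. In the 38-bin Cpt2 and Scp2 clique (chr4:107875001-108325000), 21 of 40 young bins with Scp2 adjoined 15 of 20 with Cpt2 at a gap of 0 kb. Both genes act in fatty acid oxidation. The 46-bin clique at chr9:21220001-21910000 held 30 bins of a 43-bin young clique with Smarca4, an ATPase of chromatin remodelling, and 12 of a 16-bin one. The latter listed Keap1, the sensor that restrains Nrf2, and Cdkn2d, an inhibitor of cyclin-dependent kinases, at 320 kb.

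Besides the Epas1 and Ttc7 clique, the large complete joins added small cliques to a big one. The 63-bin clique at chr8:3170001-3680000, with Pex11g, of peroxisome division, and Pnpla6, a lysophospholipase, took 56 of 79 young bins and 1 of 2. A 55-bin clique at chr1:171100001-171570000, with the nuclear receptor Nr1i3 and Apoa2 of high-density lipoprotein, took 51 of 64 and 1 of 2. In the 50-bin clique at chr10:81195001-82180000, 36 of 52 bins were joined by 2 of 2 and 2 of 4. The 47-bin clique at chr1:136345001-137015000 took 41 of 64 bins with Nr5a2, a liver nuclear receptor, and the 1 kept bin of a 2-bin clique that listed Camsap2, a microtubule end-binding protein. Camsap2 therefore went from 2 to 47 bins, and Nr5a2 from 64 to 47. The same size was reached by 2 further complete joins, a clique at chr13:40840001-41610000 with 43, 1, 1 and 1 bins from young cliques of 60, 3, 7 and 2, and one at chr2:32370001-32775000 with 33 and 2 from cliques of 50 and 2.

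**Figure D4:**
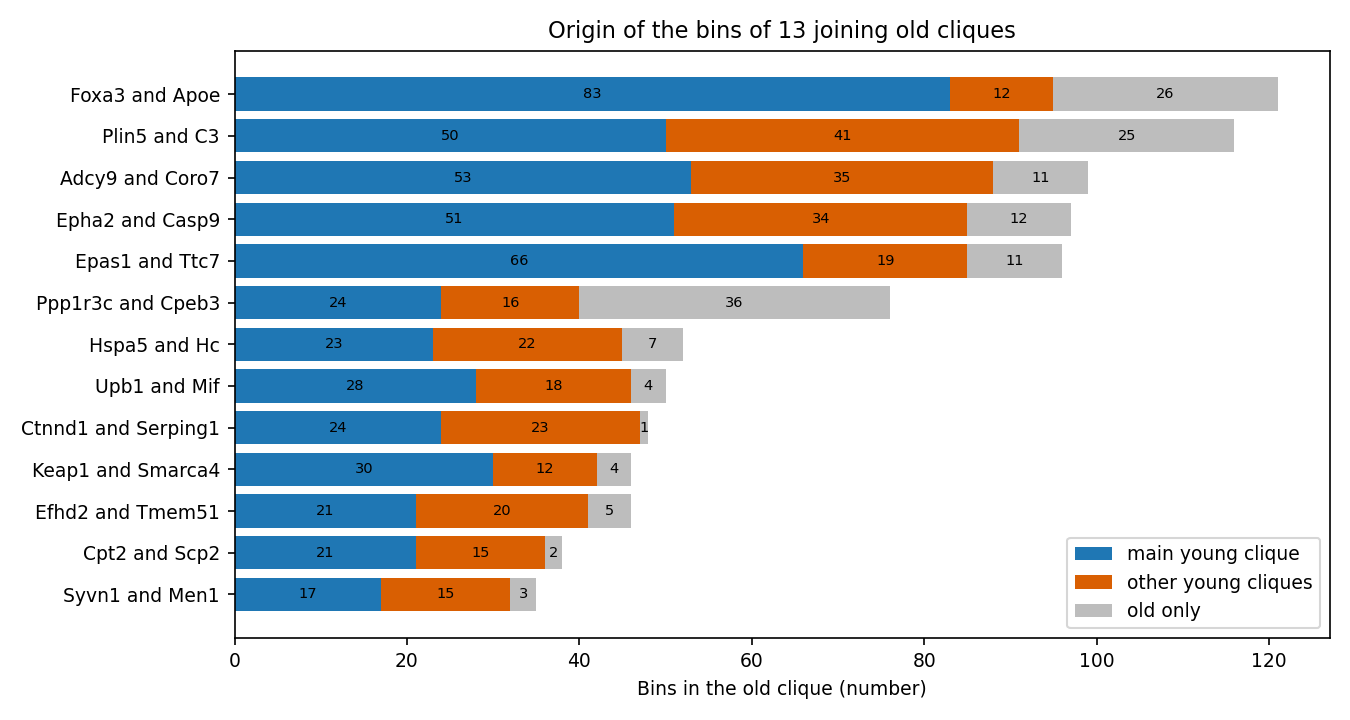
Number of bins in 13 joining old cliques from the main young contributor, from other young cliques, and in the old network only. The Plin5 and C3 clique has 41 bins from other young cliques, the most shown, and the Ppp1r3c and Cpeb3 clique has 36 old-only bins.

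Some balanced joins are described because of their values. All kept bins of both amino acid transporter cliques at chr15:96530001-97165000, 15 of 25 with Slc38a2 and 15 of 31 with Slc38a4, lay in 1 old clique of 33 bins. At chr10:93070001-93580000 a 34-bin clique took 17 of 32 bins with Cdk17, a protein kinase, and 14 of 17 with Hal and Amdhd1, which act in turn in histidine breakdown. The 35-bin Syvn1 and Men1 clique (chr19:5730001-6340000) took 17, 14 and 1 bins from cliques of 21, 23 and 2. Syvn1 is a ubiquitin ligase of the endoplasmic reticulum, and Men1 is the tumour suppressor menin. That clique also listed the microRNA genes Mir192 and Mir194-2, which came with Men1 from the 21-bin clique, and Mir130a was listed by the 48-bin Ctnnd1 and Serping1 clique, from the 29-bin one. Their RefSeq mature sequences have no seed in common (capitals, bases 2 to 8).
mmu-miR-192-5p: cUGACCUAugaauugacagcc
mmu-miR-194-5p: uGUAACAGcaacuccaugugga
mmu-miR-130a-3p: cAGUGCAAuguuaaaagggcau
They lie at chr19:6264857-6264877 and chr19:6264658-6264679, both on the plus strand, and at chr2:84741116-84741137 on the minus strand. Listing says nothing of the level of these microRNAs.

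Joining cliques listed 2846 of the 11344 genes listed in old on autosomes, and 25.7% of the protein-coding ones, 1811 of 7048. That share is the background for the gene lists, and the joining cliques hold 23.4% of bins. Of the 1811, 1284 (70.9%) had been listed by the main contributor, 375 (20.7%) by another contributor, 3 by a different young clique and 149 (8.23%) by none. In 203 joins (30.7%) the old clique listed genes of at least 2 contributing young cliques, and in 159 protein-coding genes, 1912 pairs of 936 genes in all. Among protein-coding genes listed at both ages, 12.9% (798 of 6168) lay in a larger clique in old. In joining cliques it was 597 of 1662 (35.9%), which the rule bears on, since joining adds bins. Genes from the main contributor were in smaller cliques in old, with a median of 43.0 bins in young and 28.0 in old, and 295 of 1284 (23.0%) were in a larger one. Those from other contributors went from a median of 10 to 22 bins, and 299 of 375 (79.7%) were in a larger one. The rule and the ranking by shared bins both bear on this split, so nothing is read from it. Other contributors had a median of 3 bins in young and main ones 16.5.

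Bins that came from other contributors held start sites slightly more often than main ones. A RefSeq start site lay in 294 of 1502 such bins (19.6%, 17.6 to 21.7), in 1005 of 6212 main bins (16.2%, 15.3 to 17.1) and in 118 of 1416 old-only bins (8.33%). In cliques with 1 young source it was 15.1% of shared and 7.29% of old-only bins. Where the next contributor gave 10 or more bins, it was 18.8% of the bins from other contributors and 13.7% of the main ones, and single stray bins had 19.4%. For joins of 10 or more bins the 2 intervals overlapped (15.3 to 23.0 and 11.2 to 16.6), and no test was made. Of 1459 protein-coding genes listed by joining cliques with a start site in the table, 1356 (92.9%) had it in a bin of that clique.

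The lists of hepatocyte genes were spread unevenly over joining cliques. Of all pathway list genes listed in old, 98 of 338 (29.0%) were in a joining clique, near the 25.7% of all protein-coding genes. Of the 98, 55 (56.1%) shared it with a gene of another contributor, beside 936 of all 1811 protein-coding genes in joining cliques. Complement stood at 11 of 16 (68.8%), apolipoproteins and lipoprotein metabolism at 13 of 24 (54.2%), NF-kappaB and innate immune signalling at 5 of 10, and AP-1 and immediate early genes at 9 of 21 (42.9%). At the other end were xenobiotic metabolism with 1 of 21 (4.76%), acute phase and IL-6 response with 1 of 19 (5.26%), secreted plasma proteins with 2 of 24 (8.33%), and bile acid synthesis and transport with 2 of 18 (11.1%). The other 10 lists lay between 15.4% and 36.0%. The 25.7% was not matched on clique size, and the joining share rose with clique size. Genes of a list can share a clique, the lists were drawn up with earlier results known, and no list was tested.

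**Figure D5:**
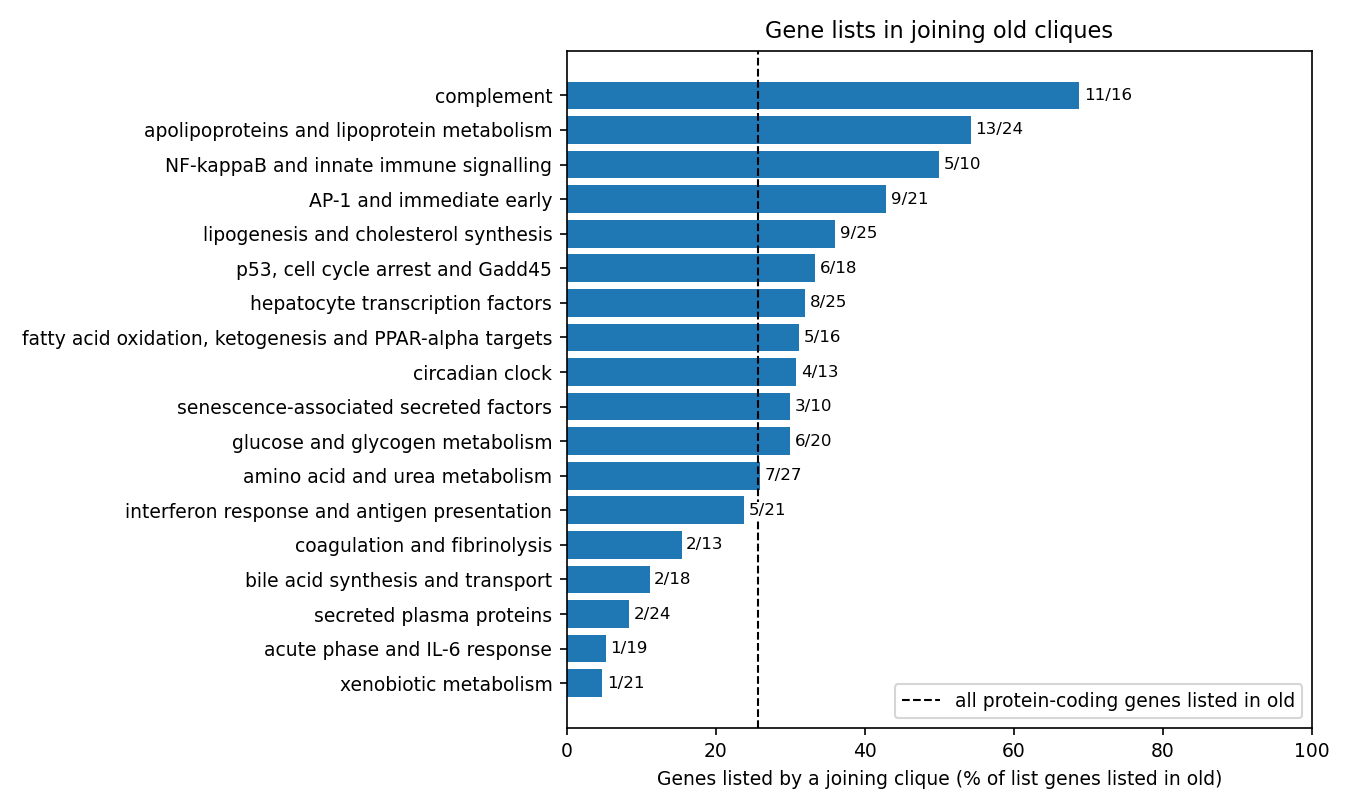
Percentage of the genes of each pathway list listed in old that a joining clique lists, with the counts beside each bar; the dashed line is the 25.7% of all protein-coding genes listed in old on autosomes. Complement lies highest at 68.8% and xenobiotic metabolism lowest at 4.76%.

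The 11 complement genes lay in 9 joining cliques of the 13 old cliques that listed a complement gene. Only C3, C8g and Cfi came from a contributor other than the main one. Cfi, the protease that cleaves activated complement, lay in a complete 25-bin join of 13 and 9 bins, and went from a clique of 16 bins to one of 25. C8g, a subunit of the membrane attack complex, lay in a 2-bin old clique with 1 bin from each source, and its young clique had 3 bins. With this tie, its source was ranked below the main one by position only. C2, C4b and Cfb, the convertase genes of the major histocompatibility region, shared a 46-bin clique with 38 bins from a 69-bin source and 4 from a 4-bin one that listed Agpat1 and Pbx2. For C4bp, a convertase inhibitor, the join rested on 1 bin beside 51, and for Cfd, the protease factor D, on 7 beside 120 in the 160-bin clique. The clique of Masp2, a lectin pathway protease, took 14, 5 and 1 bins, and its 5-bin source listed Mtor, the growth-control kinase. Of the 11, 4 were in a larger clique in old than in young, a share near the 35.9% of all protein-coding genes in joining cliques.

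Apolipoprotein and lipoprotein genes in joining cliques lay in 10 of them, and 7 of the 13 shared the clique with a gene of another contributor. Among all protein-coding genes in joining cliques, 936 of 1811 did. Apoe, Apoc1, Apoc2 and Apoc4 did so in the 121-bin Foxa3 clique (chr7:18895001-19970000). Its contributors of 98, 12 and 4 bins gave 83, 8 and 4, and 26 bins were old-only. Genes listed there and by no young clique included Relb, an NF-kappaB subunit, Gipr, an incretin receptor, and Ckm, muscle creatine kinase. Fosb, an AP-1 subunit, and Bcl3, an NF-kappaB regulator, were listed by the 98-bin young clique and in old by the same clique as Foxa3. For Pltp, a phospholipid transfer protein, the join was of 20 and 2 bins, and for Lrp1, a remnant receptor, of 62 and 1 in a clique of 69 bins that had been 159 in young.

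Transcription factors of hepatocytes were in joining cliques in 8 of 25 cases (32.0%), beside 25.7% of all protein-coding genes. Foxa3 and Nr0b2 came from a contributor other than the main one. Nr0b2, a repressor in bile acid feedback, went from a 9-bin clique to a complete 22-bin join of 12 and 8 bins with Arid1a, a subunit of SWI/SNF. Klf15, a fasting-related factor, lay in a 59-bin clique of 43, 9 and 1 bins. For Xbp1, a factor of the unfolded protein response, it was 23 and 2 bins, with the clique at 55 bins in young and 29 in old. Foxa3 and Nr0b2 were the 2 of these 8 in a larger clique in old, where 35.9% of all protein-coding genes in joining cliques were.

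Genes that came from a contributor other than the main one were found in several lists. Of all such protein-coding genes, 299 of 375 (79.7%) were in a larger clique in old, which the rule bears on. Hal went from 17 to 34 bins and Cpt2 from 20 to 38. Agxt, which detoxifies glyoxylate, went from a clique of 3 bins to one of 40, where 21 bins were old-only and 10, 4, 3 and 2 came from young cliques of 43, 4, 3 and 5 bins. Idi1, an isomerase of sterol synthesis, went from 2 to 14 bins in a join of 11 and 2. Ikbkb, the kinase that activates NF-kappaB, went from 3 to 14 in a complete join of 9 and 3, and Zfp36, which destabilises inflammatory transcripts, from 5 to 8. By contrast Ces2a, a carboxylesterase and the only xenobiotic gene in a joining clique, went from a 63-bin clique to one of 4 bins. Of 13 circadian genes listed in old, 4 (30.8%) were in joins, near the 25.7% of all protein-coding genes. They were Ciart, Cry1, Dbp and Nr1d1, and the clique of Nr1d1 had 43 bins from the main source and 1 from the next.

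Few markers of other cell types were listed at all. Of the 5 listed in old, Aif1, of macrophages, and Gpr182, of sinusoidal endothelium, were in joining cliques, and no stellate cell marker was listed in old. Aif1 was listed by a 20-bin clique in the major histocompatibility region and Gpr182 by the 69-bin clique that also listed Lrp1, both from the main contributor. Whether cells other than hepatocytes contributed to any join was not tested.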

How the data were processed

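The deposited data were 2 H3K27ac Hi-ChIP networks, 1 per age, each with a table of bins and a table of cliques. The deposited columns hold no measured level: per the file headers they give bin numbers and positions, clique membership and gene names, and no other column of values per sample was left unused (0). The submitters' processing notes name Bowtie2, HiC-Pro, mm10 and GRCm38. The loop caller, the clique method and the pooling of libraries were not given in the sources used here. Read depth is unknown.

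Bins were 5 kb, and those of both ages were matched by chromosome and start. Counting used Python 3.11.15 and SciPy 1.17.1, and was tested on simulated joins. Wilson 95% intervals cover counting error only and treat bins and cliques as independent. Genes are those of the deposited gene column, with spans, promoters and microRNAs from RefSeq (GRCm38.p6). The start-site table covers 81.7% of protein-coding genes on autosomes other than 18 and none on 18, which was left out there.

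Named were the 10 joining cliques with most bins from other contributors (some tied at 15), the 5 with most young cliques, the 5 complete joins with most bins (3 tied at 47), up to 4 genes of each, and up to 4 members per list brought together. Other genes were chosen after their values were seen. The members and lists were chosen with earlier results of these data known. Some genes that the rule names are left out of this text.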

Additional observations from a re-analysis of the deposited data

How the results depend on the processing

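No paired analysis was possible because each age has 1 pooled network. Of 42 values over 6 results under other settings, 25 lay within 1.5 times the reported count and 17 did not. Requiring at least 2 shared bins from each young clique gave 205 joining cliques in place of 662, 64 larger than their largest source in place of 105, 60 complete in place of 183, 114 side by side in place of 454 and 109 listing genes of several sources in place of 203. At least 3 bins gave 91, 40, 22, 67 and 72. Leaving out 2-bin cliques gave 300 joining, 68 larger, 120 complete and 212 side by side. Among contributors of 2 bins or more 114 were side by side. With size divided by the mean of its age 305 were larger, and over shared bins only 259. At least 2 bins raised the larger share from 15.9% to 31.2% and the gene-listing share from 30.7% to 53.2%, and 3 bins to 44.0% and 79.1%. Matching within 1 bin gave 885 joining cliques, and including X gave 673. Counting protein-coding genes only, chosen after seeing the data, gave 159 joins with genes of several sources. Pairs of bins brought together ranged from 19585 to 38682. With no library-level network, no spread between mice could be computed, and the depth of each network is unknown.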
